A study of Mus musculus with 6 samples.

Results

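The miR-466 and miR-669 families are 2 groups of closely related mouse microRNAs (miRNAs), most of whose precursors lie in 1 intron of the gene Sfmbt2. Their members were taken by name, as all rows of the deposited miRNA table beginning with miR-466 or miR-669. This gave 53 of 1522 rows, 30 of miR-466 and 23 of miR-669. Rows with the same value in every library were then taken as 1, which left 46 distinct members. The small RNA came from hippocampal neural stem cells (NSCs), which divide and give rise to neurons and glia, taken from male C57BL/6J pups on postnatal day 3. In the exposed group, called GDE here and IUGR in the library titles, the pregnant dams had received daily intraperitoneal dexamethasone (DEX, a synthetic glucocorticoid) at 1 mg/kg, with the first dose on E14.5 and the last on E18.5 (E, embryonic day). In the Control group, titled Normal, the dams had received normal saline on the same days, so injection itself was common to both. Each group had 3 libraries, from independent litters per the design text. Whether a library pooled several pups, and whether the cells were cultured or sorted after dissociation, is not given in the sources used here.

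A miRNA precursor is a short RNA hairpin that is cut into 2 mature strands, the 5p arm and the 3p arm, one of which is usually loaded into the silencing complex while the other is degraded. The loaded strand finds its target messenger RNAs mainly through its seed, the bases 2 to 8. The Sfmbt2 cluster arose by repeated tandem duplication in rodents, so its precursors are near copies of each other, and several differ in name only or by a few bases. Sfmbt2 itself encodes a Polycomb protein and is imprinted, with expression from the paternal copy, and it is best known for its role in the placenta. Among the members, miR-669a is known to act on the muscle regulator MyoD, miR-466l to bind the Il10 message, and miR-466h-5p to promote cell death in cultured cells.

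RefSeq sequences (GRCm38.p6) matched 3 of the 53 member rows, all from precursors outside Sfmbt2. They are shown because they hold both kinds of repeat, with U and G alternating in one and A and C in the others. Each is written 5′ to 3′ with the seed in capitals.
miR-466k: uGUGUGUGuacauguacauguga
miR-466i-3p: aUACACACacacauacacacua
miR-466q: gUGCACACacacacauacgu
miR-466k lies at chr3:85467396-85467418, miR-466i-3p at chr13:17747552-17747573 and miR-466q at chr3:28419988-28420007, all on the plus strand. The longest stretch of alternating U and G in miR-466k was 9 bases. The longest stretch of alternating A and C was 11 bases in miR-466i-3p and 12 in miR-466q. The 3 seeds differ, and no other mature miRNA among the 1679 in this RefSeq table shared any of them. Only 3 of the 53 member rows are in it, so whether other members share these seeds could not be examined. Of these 3, only miR-466i-3p was abundant enough to be tested, at 0.660 to 4.341 RPM. miR-466k reached 0.997 RPM at most and miR-466q 0.249 RPM. RPM are read counts scaled to the depth of the library.

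GENCODE M21 (GRCm38) lists 58 precursors of the 2 families, 52 of them inside Sfmbt2 (chromosome 2, 10370510 to 10595253, plus strand). All 52 were on the strand of Sfmbt2 and overlapped none of its exons, and they lay in 1 intron of 62472 bases. From the first, Mir466m, to the last, Mir669h, they spanned chr2:10466663-10518279. There were 23 miR-466 and 29 miR-669 precursors among them. The 6 outside were Mir466q in an intron of Tnik, Mir466k, Mir669n and Mir466i, each opposite to an intron of another gene, and Mir466j and Mir466f-4 outside any gene.

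If the values are RPM, as was inferred from the numbers, each library rested on 11751322 to 12384958 reads. In that case 3 reads correspond to 0.242 to 0.255 RPM. Added over all 1522 rows the reads came to 2927136 to 3343808 per library. Rows with identical values were each counted in this, so some reads can be in it more than once. The NSC label was examined through miRNAs of progenitors and other cells. miR-9-5p, enriched in neural progenitors, stood at 8154 to 8831 RPM. The neuronal miR-124-3p stood at 182.4 to 283.2 RPM. From the same list, miR-9-3p stood at 7069 to 8428 RPM, miR-125b-5p at 1253 to 2629 RPM and miR-219a-5p of oligodendrocytes at 2.10 to 11.5 RPM. Of 8 miRNAs of non-neural or non-progenitor cells, 3 had groups that did not overlap, all higher in GDE. They were miR-150-5p of lymphocytes, miR-223-3p of myeloid cells and miR-451a of red cells. Of all tested rows, 4.62% were higher in GDE without overlap. Those 3 summed to 363.4 to 528.0 RPM in GDE and to 136.4 to 294.0 RPM in Control. As they were picked for not overlapping, their sums had to lie apart. All 8 summed to 1291 to 1954 RPM in GDE and to 691.2 to 972.5 RPM in Control. Among them miR-204-5p of the choroid plexus, with overlapping groups, stood at 384.5 to 973.5 RPM in GDE and at 154.7 to 519.1 RPM in Control. miR-1a-3p of muscle was at or near 0. The part of these cells in the results on miR-466 and miR-669 was not tested. In such bulk libraries, fewer cells that make a miRNA and less of it per cell cannot be told apart. One property of the libraries touches every comparison: over all 649 tested rows the median deviation of Control replicate 1 from the row mean was 0.18 on the log2 scale, the farthest from 0 of the 6 libraries.

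The miR-669 family was the more abundant in every library. Its 21 distinct members summed to 695.8, 702.4 and 631.1 RPM in GDE replicates 1 to 3 and to 862.4, 832.3 and 654.1 RPM in Control replicates 1 to 3. The 26 distinct miR-466 members summed to 242.0, 227.2 and 234.4 RPM in GDE and to 333.3, 279.7 and 229.2 RPM in Control. The ratio of the miR-669 to the miR-466 sum lay between 2.59 and 3.09 over the 6 libraries. It was 2.89 ± 0.200 in GDE and 2.81 ± 0.199 in Control (mean ± SD, n = 3 each). The lowest ratio was in Control replicate 1, where both sums were highest. A row that carries names of both families is in both sums. Together, with each distinct member counted once, the families came to 0.337% to 0.434% of the RPM summed over all rows, identical rows included. RPM are not scaled by length, but mature miRNAs are of similar length.

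**Figure D1:**
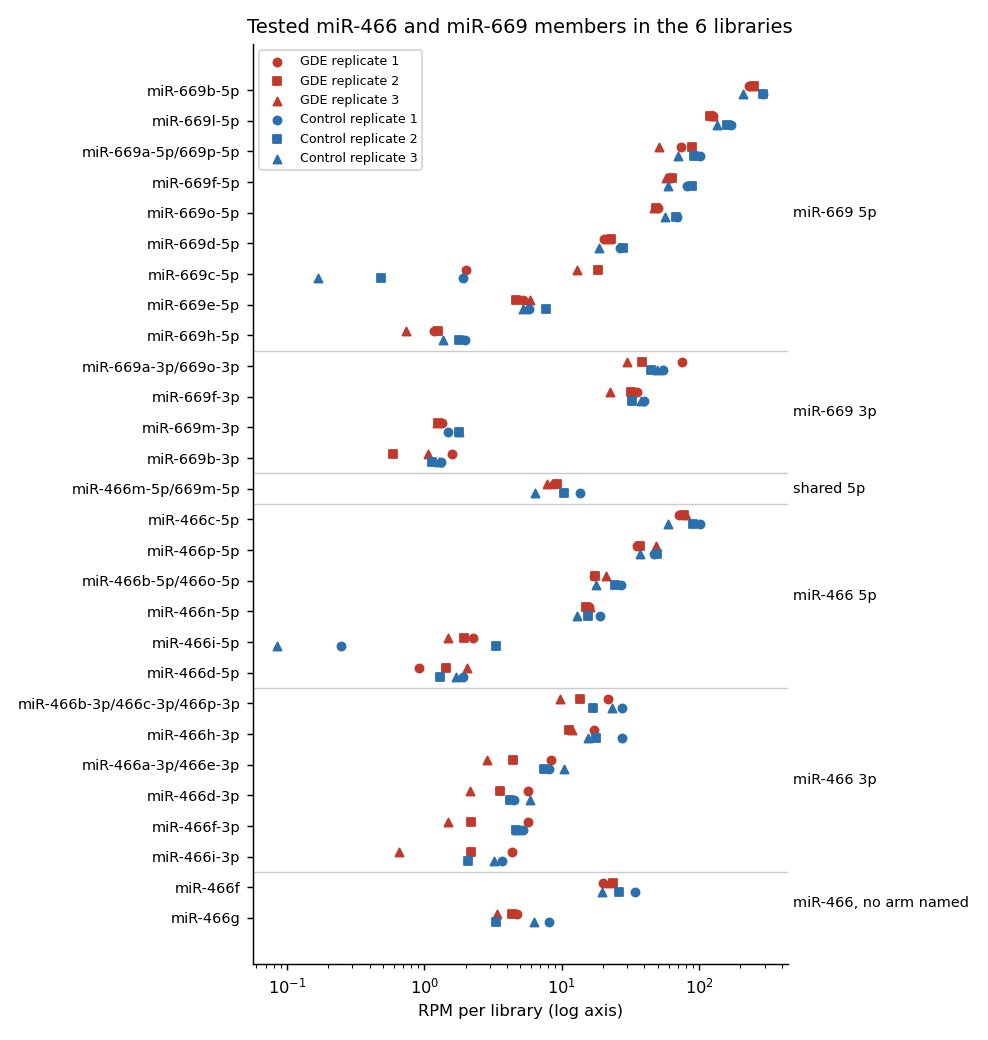
RPM of the 28 tested distinct members in each library, on a log axis, with GDE in red, Control in blue and 1 symbol per replicate number; members whose rows had identical values share a line. Single libraries ran from 0.085 RPM for miR-466i-5p to 293.5 RPM for miR-669b-5p, and miR-669c-5p and miR-466i-5p spread most widely between libraries.

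Few members carried most of the signal. miR-669b-5p was the most abundant, with 231.3, 252.7 and 245.3 RPM in the GDE libraries and 291.9, 293.5 and 208.1 RPM in the Control libraries, and it held 31.8% to 38.9% of the miR-669 sum. It ranked 109 among the 1147 miRNAs with a miRBase name. miR-669l-5p followed at a mean of 139.2 RPM over the 6 libraries. In miR-466 the leading member was miR-466c-5p, with 71.4, 77.1 and 80.7 RPM in the GDE libraries and 101.5, 89.8 and 59.8 RPM in the Control libraries, which made up 26.1% to 34.4% of the miR-466 sum. In both leading members Control replicate 3 was the lowest of all libraries and Control replicates 1 and 2 the highest.

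At the other end, 18 of the 46 distinct members did not reach 1 RPM in 3 libraries and were not tested. These were 11 of miR-466 and 7 of miR-669, 10 of them 3p arms. The highest value any of them reached was 1.872 RPM (miR-466h-5p in Control replicate 3), 10 had no read in at least 1 library, and 8 never exceeded 3 reads. The 28 that passed were 15 of miR-466 and 14 of miR-669, with 1 counted in both.

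There were 6 sets of rows with identical values, all at a mean of 6.93 RPM or more. They were miR-466a-3p with miR-466e-3p, miR-466b-3p with miR-466c-3p and miR-466p-3p, miR-466b-5p with miR-466o-5p, miR-669a-5p with miR-669p-5p, miR-669a-3p with miR-669o-3p, and miR-466m-5p with miR-669m-5p. The last of these joined the 2 families and is counted in each below. For these sets the table does not tell from which precursor a read came. The same can hold in part for other members, since how reads that match several precursors were assigned is not given in the sources used here, so the level of any single member is uncertain.

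More precursors did not go with a proportionally higher level. The row of miR-669a-5p and miR-669p-5p has 14 precursors and a mean of 79.4 RPM, while miR-669b-5p has 1 precursor and 253.8 RPM. Likewise miR-466b-5p with miR-466o-5p has 9 precursors and a mean of 20.8 RPM, against 80.0 RPM for miR-466c-5p with 2. Over the 21 distinct 5p members whose precursors are listed by name, Spearman's rho between the mean RPM and the number of precursors was 0.16, a description across rows of the same libraries that are not independent. The most abundant single-precursor members, miR-669b-5p, miR-669l-5p and miR-669f-5p, lay close together at the start of the cluster. The next, miR-669o-5p at 56.4 RPM and miR-466p-5p at 42.7 RPM, lay 47.6 and 39.3 kb from the first precursor. A first block of 8 precursors, Mir466m to Mir669l at chr2:10466663-10469068, is followed by 2575 bases with no precursor of these families. This block was marked off after the levels had been seen. The 4 miR-669 members whose only precursor is in it, miR-669f-5p, miR-669e-5p, miR-669b-5p and miR-669l-5p, gave 70.0% to 75.4% of the summed RPM of all miR-669 5p arms. Levels in the block were not all high. Of these members miR-669e-5p had a mean of only 5.76 RPM. miR-466f-5p, with precursors inside and outside the block, had a mean of 0.027 RPM.

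**Figure D2:**
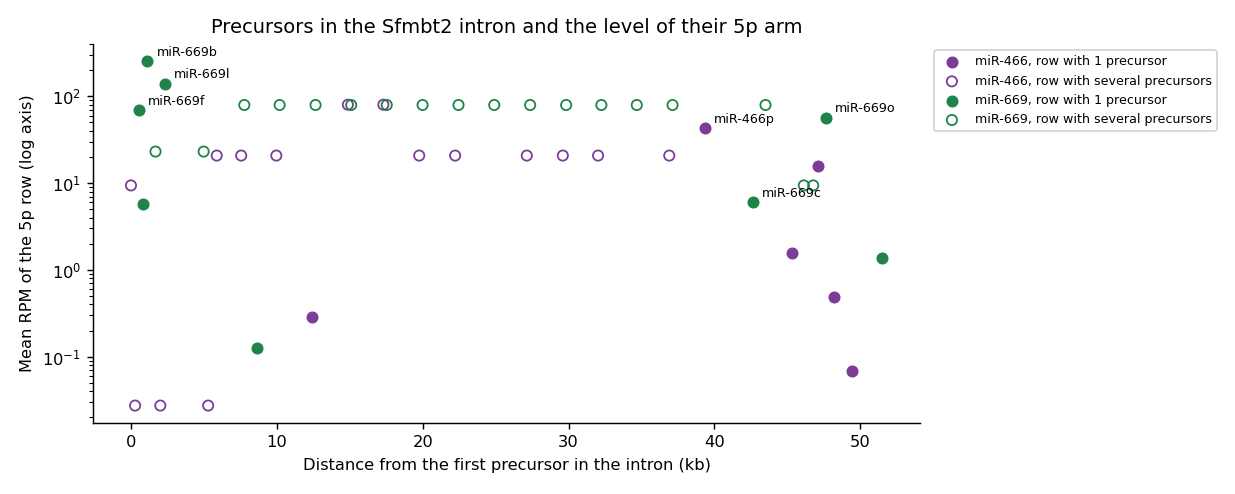
Each point is a precursor in the Sfmbt2 intron, by its distance in kb from the first precursor, and the mean RPM over 6 libraries of the 5p row that carries its name (log axis), in purple for miR-466 and green for miR-669; open points belong to rows with several precursors, so 1 value is drawn at several positions. The single-precursor miR-669b, miR-669l and miR-669f stand at the left edge, above all or most other points.

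The 5p arms made up most of both families. Over all distinct members they summed to 724.8, 779.7 and 746.3 RPM in GDE and to 961.4, 935.3 and 693.2 RPM in Control. The 3p arms summed to 179.0, 111.5 and 85.4 RPM in GDE and to 177.5, 136.4 and 157.3 RPM in Control. In miR-669 the 5p sum was 5.06 to 10.3 times the 3p sum, and in miR-466 it was 2.13 to 6.06 times. Of the 10 precursor names with both arms tested, 8 had a higher 5p arm on average, and 91 of the 147 other precursor names did.

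Single precursor names differed widely in their arms. For miR-669b the 5p arm was far ahead, with a mean of 253.8 RPM against 1.16 RPM for the 3p arm. For miR-669f the arms were closer, at 68.7 and 33.2 RPM. The rows named for miR-466b were nearly equal, at 20.8 and 18.8 RPM, with 5p higher in 3 of 6 libraries. That 3p row is shared with miR-466c-3p and miR-466p-3p, whose 5p arms stood at 80.0 and 42.7 RPM. The near equality therefore need not hold for the miR-466b precursors. miR-466d had the higher 3p arm in all 6 libraries, at 4.32 against 1.55 RPM.

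Dexamethasone-exposed and Control libraries were compared next. None of the 28 distinct members passed the threshold of an adjusted p under 0.05 (limma, Benjamini-Hochberg over all 649 tested rows), where 0.308% of all tested rows did. At an unadjusted p under 0.05 there was 1 member, miR-669c-5p, against 8.63% of all tested rows. edgeR on whole reads recovered from the RPM called 0 members, where it called 0.308% of all tested rows. DESeq2 on the same reads called 1, again miR-669c-5p, where it called 0.770%. Fold changes are on the log2(RPM + 1) scale, GDE minus Control, which understates the change of low members.

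Most members had lower mean levels in GDE, without passing the test. The log2 fold was negative in 25 of the 28, or 89.3%, while it was negative in 61.2% of all tested rows. The median was -0.26 over the members and -0.07 over all tested rows. With TMM scaling, which centres the libraries on each other, the share over all rows was 49.5% and the members were still 25 of 28. By family the counts were 13 of 15 with a median of -0.28 for miR-466 (-0.13 without Control replicate 1), and 13 of 14 with a median of -0.22 for miR-669. By arm they were 13 of 16 with a median of -0.15 for 5p and 10 of 10 with a median of -0.36 for 3p. The most negative class median was that of the 6 miR-466 3p members, at -0.58. The members share reads and precursors, so these counts are not counts of independent changes.

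Summed over the family, miR-466 stood at 234.5 ± 7.42 RPM in the GDE libraries and at 280.7 ± 52.1 RPM in the Control libraries (mean ± SD, n = 3 each), and miR-669 at 676.4 ± 39.4 against 782.9 ± 112.6 RPM. Both groups overlapped in both families. The GDE libraries lay close together while the Control libraries did not: Control replicates 1 and 2 lay above every GDE library, and Control replicate 3 lay within the GDE range. Without Control replicate 1, the library with the highest level over all rows, the log2 ratio of the group means was -0.12 for miR-466 and -0.14 for miR-669, against -0.26 and -0.21 with it. Without Control replicate 3 it was -0.39 for miR-466 and -0.32 for miR-669.

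**Figure D3:**
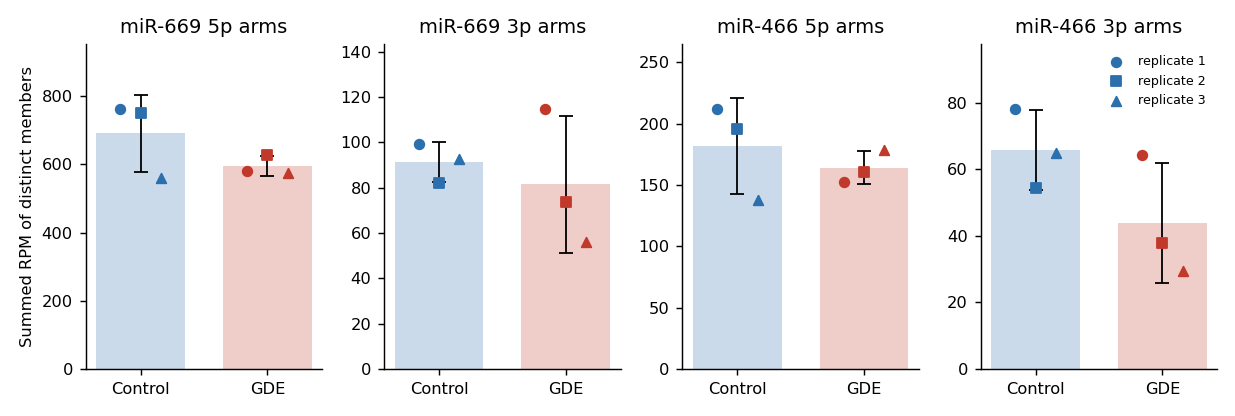
Summed RPM of the distinct members in each class, with 1 point per library, bars for the mean and error bars for the SD (n = 3); each panel has its own linear axis from 0. In the 5p panels Control replicate 3 is the lowest point, and in the 3p panels GDE replicate 1 lies far above GDE replicates 2 and 3.

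Among the miR-669 5p arms, miR-669l-5p stood at 125.8, 119.4 and 125.3 RPM in the GDE libraries and at 169.5, 159.1 and 135.8 RPM in the Control libraries. Every GDE library was below every Control library (log2 fold -0.32, SE 0.18; limma adjusted p = 0.615). miR-669o-5p stood at 50.1, 48.2 and 46.8 RPM in the GDE libraries and at 68.7, 68.3 and 56.3 RPM in the Control libraries, again without overlap (log2 fold -0.40, SE 0.20; limma adjusted p = 0.567). In both, the 3 GDE libraries lay closer together than the 3 Control libraries. In an exact permutation test (two-sided) p was 0.1 for each, and 3 libraries against 3 can give no smaller one. miR-669f-5p, with 60.9 ± 3.10 RPM in the GDE libraries and 76.6 ± 15.3 RPM in the Control libraries, and the row of miR-669a-5p and miR-669p-5p, at 71.0 ± 18.8 and 87.8 ± 16.1 RPM, had overlapping groups.

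The low miR-669h-5p, from the last precursor of the cluster, stood at 1.17, 1.27 and 0.742 RPM in the GDE libraries and at 1.99, 1.78 and 1.36 RPM in the Control libraries, and miR-669m-3p at 1.34, 1.27 and 1.24 against 1.50, 1.78 and 1.79 RPM. With miR-669l-5p and miR-669o-5p these were the 4 tested members that were lower in GDE without overlap. That is 4 of 28, where 10.0% of all tested rows were lower in GDE without overlap. All 4 belong to miR-669, and none of the 15 tested miR-466 members had groups apart in either direction. Of the 18 members under the filter, 3 were also lower in GDE without overlap, 2 of them of miR-466, where 5.84% of the 873 rows under the filter were. miR-466n-3p had 2, 2 and 4 reads in GDE and 9, 8 and 7 in Control, and miR-669p-3p had 3, 4 and 2 against 10, 5 and 10. The other is miR-466h-5p, described with the low 5p arms. Whether the families differ in this was not tested.

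The 7 tested miR-466 5p members had a median log2 fold of -0.11 and ranged from -0.28 to 0.68, the highest being miR-466i-5p. miR-466c-5p, given above, had a log2 fold of -0.10 (SE 0.25). miR-466p-5p stood at 35.6, 37.4 and 48.8 RPM in the GDE libraries and at 47.2, 49.6 and 37.4 RPM in the Control libraries, with Control replicate 3 among the lowest. The row of miR-466b-5p and miR-466o-5p was at 18.53 ± 2.04 against 23.0 ± 4.76 RPM. miR-466n-5p stood at 15.7 ± 0.566 RPM in the GDE libraries and at 15.8 ± 3.01 RPM in the Control libraries, with a log2 fold of 0.01 (SE 0.21). This small difference does not show that the groups were equal.

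The miR-466 3p arms had the most negative folds. The row of miR-466a-3p and miR-466e-3p stood at 8.43, 4.40 and 2.89 RPM in the GDE libraries and at 8.06, 7.43 and 10.4 RPM in the Control libraries (log2 fold of -0.71, SE 0.33; limma adjusted p = 0.561). The row of miR-466b-3p, miR-466c-3p and miR-466p-3p stood at 21.6, 13.5 and 9.65 RPM in the GDE libraries and at 27.3, 17.0 and 23.3 RPM in the Control libraries (log2 fold of -0.61, SE 0.32; limma adjusted p = 0.570). In both, GDE replicates 2 and 3 lay below every Control library and GDE replicate 1 lay among the Control libraries. The fold of miR-466a-3p ran from -0.42 without GDE replicate 3 to -1.06 without GDE replicate 1, and that of miR-466b-3p from -0.35 to -0.90 without the same libraries. miR-466h-3p, at 17.2, 11.3 and 11.9 RPM against 27.4, 17.9 and 15.6 RPM, gave -0.54 on the same scale, with an SE of 0.28 and an adjusted p of 0.570 in limma, and -0.32 without Control replicate 1. miR-466d-3p was lower in level, with 3.79 ± 1.78 RPM in the GDE libraries and 4.85 ± 0.894 RPM in the Control libraries. Its fold of -0.35 was -0.075 without GDE replicate 3 and -0.62 without GDE replicate 1.

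The miR-669 3p arms showed the same library, GDE replicate 1, standing high. The row of miR-669a-3p and miR-669o-3p stood at 75.2, 38.3 and 30.1 RPM in the GDE libraries and at 54.7, 44.9 and 49.7 RPM in the Control libraries, so that GDE held both the highest and the lowest library. Its log2 fold of -0.16 (SE 0.34) became 0.11 without GDE replicate 3 and -0.53 without GDE replicate 1. miR-669f-3p stood at 29.9 ± 6.54 RPM in the GDE libraries and at 36.5 ± 3.69 RPM in the Control libraries, and miR-669b-3p at 1.08 ± 0.497 and 1.24 ± 0.103 RPM.

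**Figure D4:**
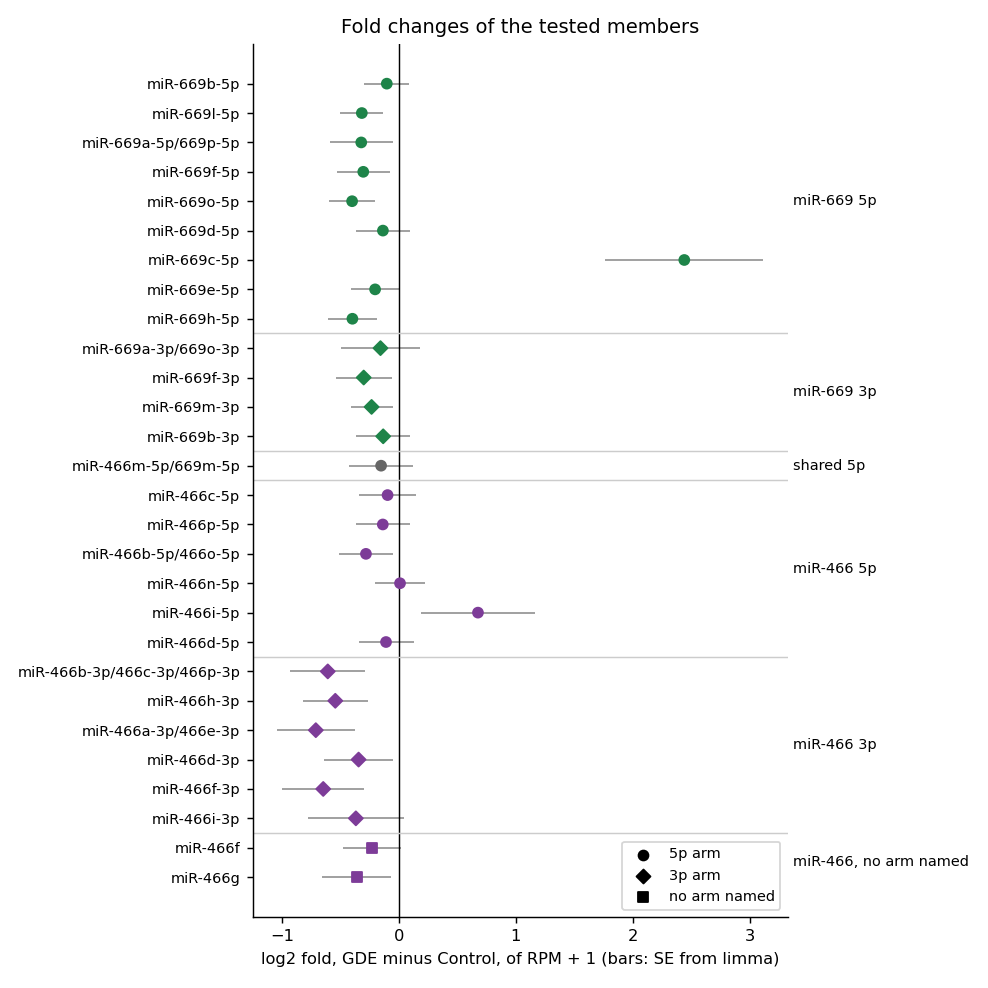
Log2 fold (GDE minus Control, on RPM + 1) of the 28 tested distinct members with SE from limma, in green for miR-669, purple for miR-466 and grey for the row shared by both, with circles for 5p, diamonds for 3p and squares for names with no arm. Points left of 0 are lower in GDE; 25 are, with miR-466a-3p farthest left at -0.71, and of the 3 on the right miR-669c-5p is farthest, at 2.44.

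miR-669c-5p was the tested member with the lowest p and the highest of the 3 positive log2 folds, the others being miR-466i-5p at 0.68 (SE 0.49) and miR-466n-5p at 0.01. Its single precursor, Mir669c, lies at chr2:10509296-10509404, toward the 3′ end of the cluster. It stood at 2.00, 18.45 and 12.9 RPM in the GDE libraries and at 1.91, 0.484 and 0.170 RPM in the Control libraries, which corresponds to 24, 218 and 156 reads against 23, 6 and 2 reads. GDE replicate 1 was level with Control replicate 1, while the other 2 GDE libraries were well above all Control libraries. It was the 1 member of 28 that was higher in GDE without overlap, where 4.62% of all tested rows were. The log2 fold was 2.44 (SE 0.68; limma adjusted p = 0.551; edgeR, adjusted p = 0.423; DESeq2, adjusted p = 0.00106), and it passed in limma without GDE replicate 1 (adjusted p = 0.0179). Over the alternatives its adjusted p ran from 0.00106 to 0.818. Its 3p arm was not detected beyond 1 read in any library.

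A further pair of low 5p arms, named after their values were seen, varied strongly between libraries of 1 group. miR-466i-5p, from chromosome 13, had 27, 23 and 18 reads in GDE but 3, 41 and 1 in Control, so that Control replicate 2 was at 3.31 RPM and the other 2 Control libraries at 0.249 and 0.085 RPM. Its 3p arm showed no such split, at 3.66, 2.10 and 3.23 RPM in Control. miR-466h-5p, which was under the filter, had 1, 0 and 1 reads in GDE and 9, 2 and 22 in Control.

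The arms of the families moved apart between libraries. For the 5p arms, Control replicate 3 was the lowest Control library in 15 of 16 tested members, while the same held for 36.2% of the 5p rows outside the families. In the other families of the intron it held for 6 of 8 distinct miR-467 members and 2 of 3 distinct miR-297 members, both arms counted. Among the 3p arms of miR-466 and miR-669, GDE replicate 1 was the highest GDE library in 10 of 10, against 43.7% of the 3p rows outside the families. One of the 10, miR-669m-3p, had 16, 15 and 15 reads in GDE. With both arms counted, this held for 5 of 8 distinct miR-467 members and 0 of 3 distinct miR-297 members. The median deviation of the miR-466 and miR-669 3p members from their own mean was 0.31 in GDE replicate 1, -0.33 in replicate 2 and -0.67 in replicate 3, on the log2 scale. For 5p members the same medians were -0.13, -0.05 and -0.01. For 3p rows outside the families they were 0.03, 0.01 and -0.10. These patterns were noted after the values had been seen, and they are descriptions of 6 libraries.

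The ratio of the arms showed the same split per precursor name. In all 10 names the lowest 5p over 3p ratio was in GDE replicate 1 (4 names) or in Control replicate 3 (6 names). Of the 147 other names, 30.6% had their lowest ratio in one of these 2 libraries. The median deviation of the 10 log2 ratios was -0.46 in GDE replicate 1, 0.18 in GDE replicate 2, 0.61 in GDE replicate 3, 0.04 in Control replicate 1, 0.29 in Control replicate 2 and -0.46 in Control replicate 3. For the other names these medians lay between -0.04 and 0.04. The median within-group SD of the log2 ratio was 0.52 for the 10 names and 0.32 for the others. Several of the 10 names share a row for 1 arm, so they are not 10 separate measurements. The ratios are made of the arms described above, and the 2 libraries were picked out from those values. The ratios are thus the same pattern seen again, not separate support for it.

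No difference in arm ratio between the groups passed the test. None of the 10 names passed in limma on the log2 ratio, adjusted over all 157 precursor names, of which 0% passed. At an unadjusted p under 0.05 there were 0 of the 10, against 5.73% of all names. For miR-669b the log2 ratio was 6.49, 7.32 and 6.89 in GDE and 6.97, 7.11 and 6.52 in Control, a difference of 0.03 (SE 0.28; limma adjusted p = 0.996). For miR-669a it was -0.03, 1.18 and 0.74 in GDE and 0.88, 1.02 and 0.48 in Control, a difference of -0.16 (SE 0.34; limma adjusted p = 0.957). For miR-669o, which shares its 3p row with miR-669a, the difference was -0.24 (SE 0.33; limma adjusted p = 0.942). The SD within GDE was larger than the difference for these 3 names. The 5 miR-466 names had positive differences, at 0.51 (SE 0.39) for miR-466c, 0.47 (SE 0.42) for miR-466p, 0.33 (SE 0.39) for miR-466b, 0.23 (SE 0.42) for miR-466d and 1.04 (SE 0.67) for miR-466i. The first 3 of these share 1 row for the 3p arm. For miR-466i the difference exceeded the SD of 0.65 in GDE but not that of 1.39 in Control. The difference was positive in 7 of the 10 names, with a median of 0.16, and in 72 of the 147 others, with a median of -0.02.

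**Figure D5:**
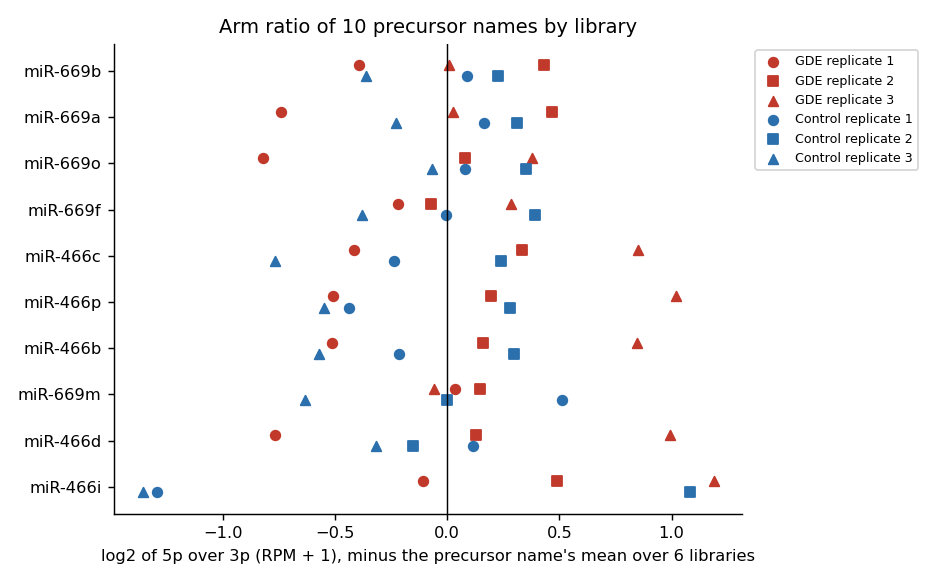
Log2 of 5p divided by 3p (RPM + 1) for each precursor name in each library, after the mean of that name over 6 libraries is subtracted, with GDE in red, Control in blue and 1 symbol per replicate number. GDE replicate 1 and Control replicate 3 lie to the left for nearly every name, and GDE replicate 3 lies to the right for most, so the spread runs within the groups.

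The other named families of the same intron are given for comparison. The distinct miR-467 members had a negative log2 fold in 7 of 8, with a median of -0.34, and 0 passed the threshold. Their sum stood at 1671, 1655 and 1501 RPM in the GDE libraries and at 2074, 2161 and 1735 RPM in the Control libraries, with no overlap between the groups. Of the 3 distinct tested miR-297 members, 2 had a negative fold and 1, miR-297c-5p, passed the threshold toward higher values in GDE. Whether the higher values of miR-297c-5p and of miR-669c-5p are linked was not tested.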

How the data were processed

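Small RNA of 6 NSC libraries was measured as RPM per mature miRNA. Per the labels' protocols, libraries were made from TRIzol-extracted RNA with an MGIEasy kit for small RNA. Bowtie2 and mm10 are named in the submitters' processing notes. How reads were trimmed, and how those matching several miRNAs were assigned, is not given in the sources used here. That the authors deposited RPM was inferred from the numbers, as the file headers say only expression: 100% of nonzero values were whole multiples of 1 step per library (tolerance 0.1 reads), which gave the reads.

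Rows of at least 1 RPM in 3 libraries were tested (649) with limma 3.58.1 (R 4.3.3) with a trend on log2(RPM + 1), unpaired and two-sided, with a Benjamini-Hochberg threshold of 0.05. The numbers of the libraries come from independent litters and were not treated as pairs. Arm ratios were tested in limma over 157 precursor names. edgeR 4.0.16 and DESeq2 1.42.0 were run on recovered reads. The tests were also run on simulated data in which rows varied independently, unlike these members, which share reads. Named members were the 4 most abundant of each family and arm, the 6 with the lowest p, those past the threshold and those without overlap. Family sums and counts have no test. The members and lists were chosen with earlier results of these data known.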

Additional observations from a re-analysis of the deposited data

How the results depend on the processing

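Over all rows, 2 miRNAs passed the threshold, against 1 with at least 10 RPM in 3 libraries, 5 in DESeq2, and 1 to 2 when 1 library was left out; it was 1 without GDE replicate 2 or 3 and without Control replicate 1 or 3. Of the members, 0 passed, against 1 (miR-669c-5p) in DESeq2, and 0 to 1 when 1 library was left out, the 1 being without GDE replicate 1. With at least 10 RPM in 3 libraries 15 members were tested and 14 had a negative log2 fold, fewer because fewer were tested; with 1 library left out it was 23 to 26 of 28. Both family medians and both family sums stayed negative under every alternative run, but their size moved: the medians of -0.28 (miR-466) and -0.22 (miR-669) were -0.15 and -0.16 with no filter and -0.11 and -0.10 with a pseudocount of 10, and the sums of -0.26 and -0.21 were -0.16 and -0.12 with TMM scaling. Equal replicate numbers did not deviate together (correlations of -0.03, -0.12 and -0.03), and with a replicate block 0 members and 2 miRNAs in all passed; no library correlated best with its own number. For 19 named members, 270 of 279 values kept direction and side of the threshold. The sign changed under some alternative in 4 members. miR-669a-3p, at -0.16 in the main fit, was at 0.019 in edgeR and 0.027 in DESeq2. With 1 library left out it ran from -0.53 to 0.11, so its fold depended on single libraries. Likewise miR-466c-5p ran from -0.32 to 0.057, miR-466n-5p from -0.12 to 0.14 and miR-669b-3p from -0.30 to 0.045. The causes were not tested. Values under 1 RPM rest on about 12 reads or fewer, which limits their precision.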
